A study of Mus musculus with 2 samples.

Results

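Vascular endothelial growth factors (VEGFs) are secreted proteins that direct the growth, survival and permeability of blood and lymphatic vessels. The 9 genes described here encode the 3 receptors of the family (Flt1, Kdr and Flt4), the 2 neuropilins that act as co-receptors (Nrp1 and Nrp2) and 4 ligands (Vegfa, Vegfb, Vegfc and Pgf). They were taken by gene symbol from a table of 53465 mouse genes, by a rule that used no measured values, and each symbol matched exactly 1 row. Earlier results of these data were known when they were chosen. The data came from endothelial cells isolated from C57Bl/6 mice of the tie2-cre genotype, treated with NeuroD1 or with GFP, with 1 library for each treatment. NeuroD1 is a transcription factor that drives the differentiation of neurons, GFP is a fluorescent protein that served as the control, and both groups carry the tie2-cre allele, whose promoter is active in endothelial cells and also in blood-forming cells. Per the labels, cells of 3 mice were collected and 10000 of them lysed for a library, so differences between animals within a treatment cannot be seen. The age of the mice, the vector, the dose, the time after treatment and whether these mice had a stroke are not given in the sources used here.

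In a vessel wall, Kdr is the receptor that carries most VEGF signalling to the cell interior, and Flt1 binds the same ligand more tightly while signalling weakly, so that it can hold ligand away from Kdr. Flt1 also binds the products of Vegfb and Pgf, and Flt4 binds that of Vegfc and is best known from lymphatic vessels, although sprouting blood vessels use it as well. Neuropilins have a short interior part with no kinase, bind certain VEGF forms beside Kdr or Flt4, and also bind class III semaphorins. In brain, endothelial cells are a main site of the receptors, while much of the Vegfa is made by the cells around them.

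Values are FPKM, by definition fragments scaled by exon length and by library size. With 1 library per treatment there is no spread between replicates, so no difference below has a test or a p-value. Whole reads could be recovered for all 9 genes from FPKM and exon length, and they give each value an exact 95% interval that covers counting error only. Recovered reads totalled 2001426 in the NeuroD1 library and 2011130 in the GFP library. Genes above 1000 FPKM took 57.4% of them in NeuroD1 and 52.3% in GFP, which left 851964 reads in NeuroD1 and 958799 in GFP for the rest. The deposited values make a read worth 1.13 times as much FPKM in the NeuroD1 library as in the GFP library for the same gene. The totals of recovered reads were nearly equal, so they do not give this factor, and how it was set is not stated in the sources used here. Neurod1 itself stood at 182 FPKM (970 reads) in the NeuroD1 library and 0.664 FPKM (4 reads) in the GFP library, as the labels imply, although reads of a delivered sequence cannot be told apart from those of the mouse gene.

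Both libraries also held reads in the genes of odour, pheromone and taste receptors, which endothelial cells are not known to use. Over 1514 such chemoreceptor genes the median was 1.404 FPKM in NeuroD1 and 1.54 FPKM in GFP, and the 95th percentile was 4.79 FPKM in NeuroD1 and 4.39 FPKM in GFP. These are the background levels against which each gene is read here. Median reads per protein-coding gene went up with exon length, with 5 reads in NeuroD1 and 6 in GFP in the shortest of 4 equal classes and 54 in NeuroD1 and 63 in GFP in the longest, while median FPKM was 2.27 in NeuroD1 and 2.45 in GFP in the shortest class and 3.25 in NeuroD1 and 3.34 in GFP in the longest. Reads that go up with exon length are not what a method reading the poly(A) end gives by design, although the labels name such a method (DRUG-seq). The sources used here do not settle this, so levels compared per length hold only if reads came from the whole transcript.

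Of 12 pan-endothelial markers, 11 lay above the chemoreceptor 95th percentile in each library, and their FPKM summed to 135 in NeuroD1 and 124 in GFP. All 8 brain endothelial markers lay above it, with sums of 197 FPKM in NeuroD1 and 165 FPKM in GFP. Among 8 mural cell markers 1 lay above it in each library (sums of 22.4 FPKM in NeuroD1 and 25.4 FPKM in GFP), and among 7 astrocyte markers none did in NeuroD1 and 1 did in GFP (18.7 FPKM in NeuroD1 and 19.7 FPKM in GFP). Of 8 neuron markers 3 lay above it in NeuroD1 and 2 in GFP, with sums of 59.3 FPKM in NeuroD1 and 48.4 FPKM in GFP. Rbfox3, the gene of the neuronal protein NeuN, made up much of these sums, at 31.02 FPKM in NeuroD1 and 26.8 FPKM in GFP. Of 10 microglia and macrophage markers 2 lay above it in NeuroD1 and 4 in GFP (43.0 FPKM in NeuroD1 and 40.7 FPKM in GFP), and of 6 oligodendrocyte markers 1 in each library (22.9 FPKM in NeuroD1 and 20.4 FPKM in GFP). Of 3 choroid plexus markers 2 did in NeuroD1 and 1 in GFP (19.6 FPKM in NeuroD1 and 19.3 FPKM in GFP), of 5 red cell markers 2 in NeuroD1 and 3 in GFP (25.6 FPKM in NeuroD1 and 37.7 FPKM in GFP), and of 4 platelet markers 1 in NeuroD1 and 2 in GFP (9.04 FPKM in NeuroD1 and 15.5 FPKM in GFP). The part of these cells in the values of the members was not tested. Apart from 1 of the table's 2 rows named Ccl21a, no marker on any of these lists was at 0.

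NeuroD1 belongs to the basic helix-loop-helix factors, which bind the E-box, CANNTG, so the DNA just ahead of the genes is shown for the members with the highest levels whose window is clear of exons but for 3 bases at its edge in Kdr. The RefSeq table of promoters (GRCm38.p6) matched all 9 genes with 11 start sites, and 250 bases before each start were searched on both strands. The windows of Flt1 (chr5:147726012-147726261, minus strand), Kdr (chr5:75978456-75978705, minus strand) and Vegfb (chr19:6987652-6987901, minus strand) read as follows, 5′ to 3′ along the gene, with E-boxes and TATAAA in capitals.
Flt1: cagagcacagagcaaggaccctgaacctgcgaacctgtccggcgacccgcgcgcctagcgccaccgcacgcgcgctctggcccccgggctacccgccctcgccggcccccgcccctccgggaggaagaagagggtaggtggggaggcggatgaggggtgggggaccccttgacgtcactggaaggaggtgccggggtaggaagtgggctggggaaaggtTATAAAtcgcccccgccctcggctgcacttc
Kdr: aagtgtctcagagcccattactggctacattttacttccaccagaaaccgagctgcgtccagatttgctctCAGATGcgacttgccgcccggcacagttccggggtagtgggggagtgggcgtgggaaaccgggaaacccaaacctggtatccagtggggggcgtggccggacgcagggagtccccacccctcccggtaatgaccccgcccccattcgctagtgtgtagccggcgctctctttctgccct
Vegfb: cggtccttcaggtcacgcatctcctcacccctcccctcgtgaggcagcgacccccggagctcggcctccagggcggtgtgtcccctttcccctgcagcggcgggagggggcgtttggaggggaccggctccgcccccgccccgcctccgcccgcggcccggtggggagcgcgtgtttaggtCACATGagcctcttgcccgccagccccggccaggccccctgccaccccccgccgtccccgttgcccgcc
The Kdr window held 1 E-box, CAGATG, 179 bases before the start, and the Vegfb window held 1, CACATG, 69 bases before it. The Flt1 window held none, and was the only one of the 11 with TATAAA, which 12.4% of 32851 promoters hold. An E-box was found for 5 of the 9 genes, in 6 of 11 windows, against 66.2% of all promoters. Its 2 forms searched separately, CAGATG and CAGCTG, are part of that count and were found in 1 window each, of Kdr and Pgf, against 14.4% and 13.0% of all promoters. GGGCGG, a GC-rich element, was present in 10 of 11 windows, against 32.7% of all promoters. The windows were 59.2% to 76.4% G and C, against a median of 52.4% for all promoters. GGAA, the core of the sites of ETS factors, was present in 9 of 11 windows and in 93.4% of all promoters. ACGTG, the core of the hypoxia element, was present in 1 window, that of an inner start of Vegfa, and in 16.6% of all promoters. These are matches of letters, and binding was not measured.

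The receptors were the best detected members, and all 3 stood above the chemoreceptor 95th percentile in both libraries. Flt1 was the most abundant member and the only receptor with a lower FPKM in the NeuroD1 library, while Kdr and Flt4 had a higher FPKM there. On the deposited scale none of the 3 differed between the libraries beyond counting error. The interval of Flt1 fell below 1 under the scalings below that count the genes above 1000 FPKM. In bulk libraries such as these, fewer cells of a type and less RNA per cell cannot be told apart.

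Flt1 (ENSMUSG00000029648, chromosome 5, positions 147561604 to 147726011 on the minus strand of GRCm38) stood at 21.3 FPKM in NeuroD1 (interval 19.6 to 23.1, 561 reads) and 22.9 FPKM in GFP (interval 21.2 to 24.7, 684 reads). It ranked 228 among protein-coding genes in NeuroD1 and 163 in GFP, so it was among the more abundant genes of both libraries, and the intervals overlapped. The ratio of NeuroD1 to GFP was 0.929 (interval 0.829 to 1.04). With each read given the same share of all recovered reads, the ratio was 0.824 (interval 0.736 to 0.923), and with FPKM scaled to an equal sum in each library it was 0.789 (interval 0.704 to 0.883). Among protein-coding genes that held 20 reads or more, an interval below 1 was found for 12.7% under the first of these scalings and for 16.0% under the second. Widened to the variance between the libraries (described with Vegfb), the intervals of Flt1 were 0.709 to 0.958 under the first and 0.678 to 0.916 under the second. Both scalings count the genes above 1000 FPKM. With those genes left out of the equal sum, the difference of Flt1 in log2(FPKM + 1) was -0.097, against -0.10 as deposited. It was -0.086 with the median log2 ratio of protein-coding genes set to 0. Gene totals do not separate the membrane receptor from the soluble form of Flt1, a secreted decoy made by early polyadenylation.

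Kdr (ENSMUSG00000062960, chromosome 5, positions 75932827 to 75978458 on the minus strand of GRCm38) stood at 11.2 FPKM in NeuroD1 (interval 9.73 to 12.9, 198 reads) and 9.98 FPKM in GFP (interval 8.64 to 11.5, 199 reads). The reads of the main signalling receptor were thus almost equal, and its ratio of 1.13 (interval 0.921 to 1.38) was close to that of the scaling of the deposited values. Flt4 (ENSMUSG00000020357, chromosome 11, positions 49609263 to 49652739 on the plus strand of GRCm38) stood at 7.10 FPKM in NeuroD1 (interval 5.86 to 8.53, 114 reads) and 5.55 FPKM in GFP (interval 4.52 to 6.75, 101 reads). Its ratio was 1.28 (interval 0.969 to 1.69), and the receptor of Vegfc was the lowest of the 3. Lymphatic markers were at the chemoreceptor level beside it: Prox1, the lymphatic master factor, stood at 1.77 FPKM in NeuroD1 and 1.67 FPKM in GFP. Of the 6 table rows of the 5 lymphatic markers none in NeuroD1 and 2 in GFP passed the chemoreceptor 95th percentile, and they summed to 15.2 FPKM in NeuroD1 and 16.4 FPKM in GFP.

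**Figure D1:**
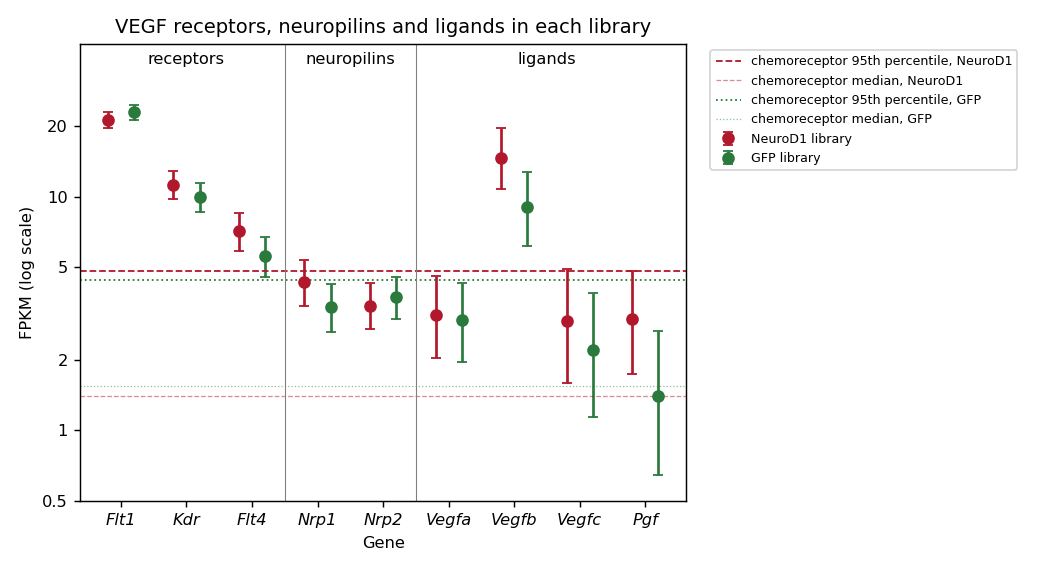
FPKM on a log scale of the 9 genes in the NeuroD1 library (red) and the GFP library (green), with exact 95% counting intervals as bars and the chemoreceptor median and 95th percentile of each library as lines. Flt1, Kdr, Flt4 and Vegfb lie above the 95th percentile lines in both libraries, and the other 5 genes lie below them.

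Ratios between receptors within a library do not depend on how the libraries were scaled. Per length, Flt1 was 1.89 times Kdr in NeuroD1 (interval 1.61 to 2.24) and 2.298 times Kdr in GFP (interval 1.96 to 2.71). The change of that ratio, NeuroD1 over GFP, was 0.824, with an interval of 0.653 to 1.04 that holds 1. Flt4 was 0.333 times Flt1 in NeuroD1 and 0.242 times in GFP, a change of 1.38 (interval 1.02 to 1.86). Of 12 ratios of 2 members computed in this way, this one and that of Vegfb to Flt1 had an interval that excluded 1, and both have Flt1 as the denominator. Both held 1 when widened to the variance between the libraries, at 0.923 to 2.05 for Flt4 and 0.917 to 3.39 for Vegfb. As a share of the reads of the 3 receptors, Flt1 took 64.3% in NeuroD1 (exact binomial interval 61.0 to 67.4) and 69.5% in GFP (interval 66.5 to 72.4). These intervals cover counting error only, and the ratios were chosen after the values were seen.

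Flt1 was also set against endothelial markers, again with no scaling between libraries. For each 100 reads of the 11 pan-endothelial markers with recovered reads, Flt1 had 52.7 reads in NeuroD1 and 66.7 in GFP, a change of 0.790 (interval 0.685 to 0.912, widened 0.653 to 0.956). The other 8 members had intervals that held 1 on this measure. The median protein-coding gene with at least 20 reads changed by 0.843 relative to these markers. An interval below 1 was found for 15.0% of such genes and one above 1 for 1.56%. Flt1 was thus lower relative to the summed reads of these markers in the NeuroD1 library, by a change close to that of the median gene. The markers themselves were spread, with FPKM ratios of NeuroD1 to GFP from 0.743 to 1.78, against 0.929 for Flt1. Against the 8 brain endothelial markers the change of Flt1 was 0.777 (interval 0.677 to 0.892). Among the 162 protein-coding genes with a mean of 20 to 50 FPKM, the median difference in log2(FPKM + 1) was 0.23, 85.2% were above 0, and 17 had a lower difference than the -0.10 of Flt1.

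The neuropilins lay within the chemoreceptor range, and they differed in opposite directions by less than counting error. Nrp1 (ENSMUSG00000025810, chromosome 8, positions 128358604 to 128503363 on the plus strand of GRCm38), the co-receptor that pairs mainly with Kdr, stood at 4.30 FPKM in NeuroD1 (interval 3.42 to 5.33, 82 reads) and 3.38 FPKM in GFP (interval 2.65 to 4.25, 73 reads). Its ratio was 1.27 (interval 0.917 to 1.77). The microRNA gene Mir1903 lies within its exons and shares 80 bases with them, 0.818% of its exon length, and no other member shares exon bases with another gene of the annotation.

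Nrp2 (ENSMUSG00000025969, chromosome 1, positions 62703285 to 62818695 on the plus strand of GRCm38), which pairs with Flt4, stood at 3.42 FPKM in NeuroD1 (interval 2.71 to 4.26, 79 reads) and 3.71 FPKM in GFP (interval 3.01 to 4.52, 97 reads). Its ratio was 0.922 (interval 0.677 to 1.25). Neuropilin exons are long, and against the 290 chemoreceptor genes of at least 5000 bases, whose 95th percentile was 3.82 FPKM in NeuroD1 and 3.65 FPKM in GFP, Nrp1 was above in NeuroD1 and Nrp2 in GFP. Nrp1 per Nrp2 was 1.26 in NeuroD1 (interval 0.911 to 1.73) and 0.911 in GFP (interval 0.663 to 1.25), so their order was not resolved in either library.

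All 4 ligands among the members had a higher FPKM in the NeuroD1 library, while Vegfd, a ligand outside the 9 genes, had a lower one. Vegfa had fewer reads in NeuroD1, 26 against 28 in GFP. Together the 4 ligands held 103 reads in NeuroD1 and 81 in GFP. Their summed reads, on the FPKM scale, had a ratio of 1.44 (interval 1.07 to 1.95), against 1.005 for the 3 receptors (interval 0.916 to 1.10) and 1.07 for the 2 neuropilins (interval 0.859 to 1.34). The ratio of the ligands no longer excluded 1 once widened to the variance between the libraries (0.966 to 2.16), nor did it with each read given the same share of recovered reads (1.28, interval 0.946 to 1.73) or with equal sums of FPKM (1.22, interval 0.905 to 1.66). The summed receptors lay below 1 under those same scalings, at 0.891 (interval 0.813 to 0.978) for the share of reads and 0.853 (interval 0.778 to 0.935) for equal sums. The first held 1 when widened (0.789 to 1.01). Flt1 held most of the receptor reads. Kdr (0.9998 and 0.957) and Flt4 (1.13 and 1.09) each had intervals that held 1 under both scalings. Of protein-coding genes with 20 reads or more, 12.7% lay below 1 under the share of reads and 16.0% under equal sums. Vegfb made up 44.7% of the ligand reads in NeuroD1 and 39.5% in GFP, and it alone stood above the chemoreceptor range.

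Vegfb (ENSMUSG00000024962, chromosome 19, positions 6982473 to 6987651 on the minus strand of GRCm38), a ligand of Flt1 that does not bind Kdr, stood at 14.7 FPKM in NeuroD1 (interval 10.8 to 19.6, 46 reads) and 9.03 FPKM in GFP (interval 6.17 to 12.7, 32 reads). The ratio of 1.63 had an interval of 1.015 to 2.64, so Vegfb was the 1 member of 9 whose counting interval excluded 1. Such an interval was found for 12.1% of protein-coding genes that held 20 reads or more, 5.93% on the higher side and 6.22% on the lower, so 1 of 9 (11.1%) is near the background. For these genes the libraries varied 1.76 times as much as counting alone would give. With intervals widened to that variance, which leaves 4.01% of genes excluding 1, the interval of Vegfb was 0.869 to 3.09, and on the deposited scale no member excluded 1. The counting interval of Vegfb also held 1 with each read given the same share of recovered reads (ratio 1.44, interval 0.9002 to 2.34) and with equal sums of FPKM (ratio 1.38, interval 0.861 to 2.24). Per length, Vegfb was 0.690 times Flt1 in NeuroD1 (interval 0.499 to 0.933) and 0.394 times in GFP (interval 0.267 to 0.561), a change of 1.75 (interval 1.08 to 2.88).

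Pgf (ENSMUSG00000004791, chromosome 12, positions 85166635 to 85177790 on the minus strand of GRCm38), placental growth factor, another ligand of Flt1, stood at 3.003 FPKM in NeuroD1 (interval 1.75 to 4.81, 17 reads) and 1.403 FPKM in GFP (interval 0.642 to 2.66, 9 reads). It had the widest difference of the 9 genes, 0.74 in log2(FPKM + 1), on few reads, and its ratio of 2.14 had an interval of 0.902 to 5.45. At the chemoreceptor median a gene of its length would hold 7.95 reads in NeuroD1 and 9.89 in GFP, so the GFP value was at background.

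Vegfa (ENSMUSG00000023951, chromosome 17, positions 46016993 to 46032369 on the minus strand of GRCm38), the ligand of Flt1 and Kdr, stood at 3.11 FPKM in NeuroD1 (interval 2.03 to 4.56, 26 reads) and 2.96 FPKM in GFP (interval 1.97 to 4.28, 28 reads). These levels were close to each other and to the median protein-coding gene, 2.98 FPKM in NeuroD1 and 3.10 FPKM in GFP. The ratio was 1.05 (interval 0.592 to 1.86). Vegfc (ENSMUSG00000031520, chromosome 8, positions 54077606 to 54187096 on the plus strand of GRCm38), the ligand of Flt4, stood at 2.93 FPKM in NeuroD1 (interval 1.603 to 4.92, 14 reads) and 2.22 FPKM in GFP (interval 1.15 to 3.87, 12 reads). The ratio was 1.32 (interval 0.567 to 3.13), too wide to give a direction at this depth. At the chemoreceptor median, genes of these lengths would hold 11.7 reads (Vegfa) and 6.71 reads (Vegfc) in NeuroD1, and 14.6 and 8.35 reads in GFP.

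**Figure D2:**
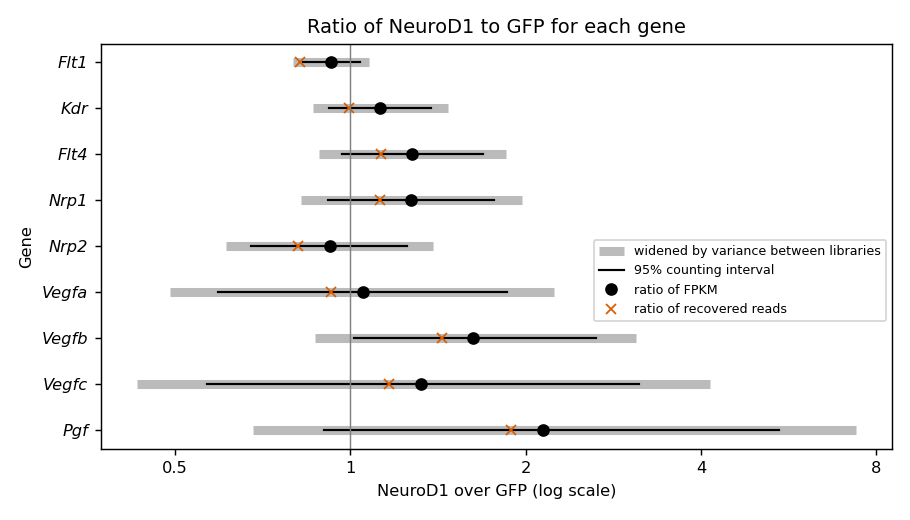
Ratio of NeuroD1 to GFP on a log axis for each gene: points are FPKM ratios, black lines their exact 95% counting intervals, grey bars the intervals widened to the variance between the libraries, and crosses the ratios of recovered reads. Only the black line of Vegfb, 1.015 to 2.64, clears 1, and all 9 grey bars hold 1.

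Ordered by level per length, the NeuroD1 library ran Flt1, Vegfb, Kdr, Flt4, Nrp1, Nrp2, Vegfa, Pgf and Vegfc, and the GFP library ran Flt1, Kdr, Vegfb, Flt4, Nrp2, Nrp1, Vegfa, Vegfc and Pgf. In NeuroD1, Flt1 was 1.45 times Vegfb (interval 1.07 to 2.003), whereas Vegfb and Kdr did not differ beyond counting error. Kdr was 1.58 times Flt4 there (interval 1.25 to 2.01), and Flt4 1.65 times Nrp1 (interval 1.23 to 2.22). In GFP, Flt1 was 2.298 times Kdr, Kdr and Vegfb did not differ beyond counting error, and Vegfb was 1.63 times Flt4 (interval 1.06 to 2.44). Flt4 was 1.498 times Nrp2 in GFP (interval 1.12 to 2.0). From the neuropilins down, no neighbours differed beyond counting error in either library. Both libraries thus had the same 4 genes on top per length, and Vegfb and Kdr, which changed places, were not resolved in either. By reads alone, with no division by length, Vegfb stood at position 6 in both libraries.

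Of the 9 genes, 4 had at least 5 FPKM in one library or both, and none of them differed by 1 or more in log2(FPKM + 1), called 2-fold here. That threshold was passed by 6.55% of 6408 protein-coding genes with at least 5 FPKM, 3.25% on the higher side and 3.31% on the lower, and by 28.5% of genes of all classes. At these shares a count of 0 of 4 says little about the family. Differences in log2(FPKM + 1) spanned -0.10 to 0.74 with a median of 0.28, against -0.016 for protein-coding genes with at least 1 FPKM. They were above 0 for 7 genes of 9, against 48.4% of those protein-coding genes. That share went up with level, from 46.8% at a mean of 2 to 5 FPKM to 85.2% at 20 to 50 FPKM. The count of members above 0 was 5 of 9 when a read was given the same share of all recovered reads in each library. It was also 5 of 9 when FPKM was scaled to an equal sum in each library. Vegfa was below 0 under both settings, and Kdr was -0.00026 under the first and -0.058 under the second.

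**Figure D3:**
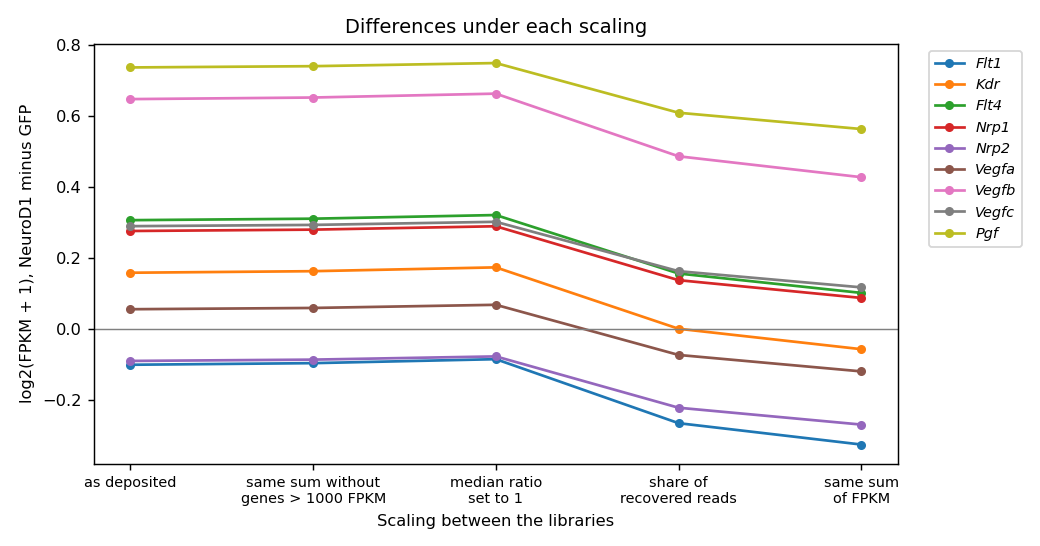
Difference in log2(FPKM + 1), NeuroD1 minus GFP, of each gene under 5 scalings between the libraries, with lines joining the values of a gene. Flt1 and Nrp2 are below 0 under each scaling, Vegfa drops below 0 and Kdr just below or below 0 under the 2 at the right, and the other 5 genes stay above 0.

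The wider VEGF pathway was described over 145 genes in 11 lists, which excluded the 9 members. Of 68 genes with at least 5 FPKM none was 2-fold higher in NeuroD1 and 1 was 2-fold lower. Among protein-coding genes with at least 5 FPKM, 3.25% were 2-fold higher and 3.31% 2-fold lower. Intervals lay above 1 for 8 and below 1 for 8 of the 128 genes that held 20 reads or more, which is close to the 5.93% above and 6.22% below 1 for all protein-coding genes. With intervals widened to the variance between the libraries, 4 were above 1 and 5 below it, 7.03% of the 128 against 4.01% of protein-coding genes. The median difference in log2(FPKM + 1) of the 144 genes with at least 1 FPKM was 0.058.

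The gene past the 2-fold threshold was Kcne3, a potassium channel subunit of sprouting endothelial cells, at 1.44 FPKM (5 reads) in NeuroD1 and 7.13 FPKM (28 reads) in GFP. It belongs to 17 genes known to be induced by VEGF in endothelial cells, of which 6 had a difference above 0 and 4 of 14 with enough reads had an interval below 1, a side on which 6.22% of protein-coding genes lay. When widened, the intervals of Kcne3 and Egr1 stayed below 1, and those of Plat (0.513 to 1.02) and Egr2 (0.151 to 1.02) did not. Plat, the tissue plasminogen activator, stood at 8.22 FPKM in NeuroD1 and 11.3 FPKM in GFP (ratio 0.726, interval 0.559 to 0.939). The other 2 of those 4, Egr1 and Egr2, are immediate early genes that many stimuli induce, at ratios of 0.558 (interval 0.408 to 0.756) and 0.412 (interval 0.194 to 0.818). Of 7 markers of tip cells, the leading cells of vessel sprouts, none had an interval that excluded 1, against 12.1% of protein-coding genes with 20 reads or more. The FPKM of the 7 markers summed to 39.1 in NeuroD1 and 41.2 in GFP. Nr4a1, another early gene, had 16.2 FPKM in NeuroD1 and 26.7 FPKM in GFP, and its reads were not recovered.

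Of 15 factors that act on VEGF receptor genes and held at least 20 reads, 3 had an interval above 1 and 2 below it, against 5.93% above and 6.22% below for all protein-coding genes. When widened, the 3 higher ones, Erg, Fli1 and Sox18, held 1, and the 2 lower ones, Gata2 and Foxc2, did not. Erg, an ETS factor that keeps endothelial identity, stood at 16.9 FPKM in NeuroD1 and 12.1 FPKM in GFP (ratio 1.39, interval 1.05 to 1.85). Fli1, a related ETS factor, had 14.4 FPKM in NeuroD1 and 9.87 FPKM in GFP (ratio 1.46, interval 1.07 to 1.997). Sox18, a factor of vessel development, had 11.7 FPKM in NeuroD1 and 6.43 FPKM in GFP (ratio 1.82, interval 1.05 to 3.21). On the lower side were Gata2, at 3.23 FPKM in NeuroD1 and 6.29 FPKM in GFP (ratio 0.513, interval 0.332 to 0.780), and Foxc2, a lymphatic valve factor, with 3 reads in NeuroD1 and 20 in GFP (ratio 0.170, interval 0.0323 to 0.573). Erg is also on the list of pan-endothelial markers, while Fli1 is on no marker list used here. A difference above 0 was found for 8 of 12 pan-endothelial markers (66.7%) and 7 of 8 brain endothelial markers (87.5%). Among protein-coding genes that share was 53.9% at a mean of 5 to 10 FPKM, 65.2% at 10 to 20 and 85.2% at 20 to 50. Most pan-endothelial markers had a mean of 5 to 10 FPKM, and most brain markers had a mean of 10 to 50 FPKM. Their reads were 1065 in NeuroD1 and 1026 in GFP for the pan-endothelial markers and 1317 in NeuroD1 and 1248 in GFP for the brain ones, and 3 of 11 and 4 of 8 had an interval above 1. The part of that in the receptor values was not tested.

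Signalling genes below the receptors were mostly within counting error. Of 18 receptor-proximal genes 14 had a difference above 0, against 48.4% of protein-coding genes with at least 1 FPKM. Their median difference was 0.25 in log2(FPKM + 1). Of 16 with enough reads 1 had an interval that excluded 1, while 5.93% of protein-coding genes with 20 reads or more lay above 1. It was Yes1, a Src-family kinase, at 4.71 FPKM in NeuroD1 and 2.59 FPKM in GFP (ratio 1.82, interval 1.22 to 2.73). Gab1, an adaptor, had 7.47 FPKM in NeuroD1 and 5.26 FPKM in GFP with an interval of 0.995 to 2.04. Of 26 downstream kinases and effectors with enough reads 2 had an interval above 1, against the same 5.93%. These were Map2k2, a kinase of the MAP kinase cascade, at 9.87 FPKM in NeuroD1 and 5.84 FPKM in GFP (ratio 1.69, interval 1.25 to 2.31), and the small GTPase Rhoa at 10.6 FPKM in NeuroD1 and 7.79 FPKM in GFP (ratio 1.36, interval 1.07 to 1.73). When widened, the intervals of Yes1 and Map2k2 stayed above 1 and that of Rhoa, 0.990 to 1.87, did not. Prkd2, the most abundant kinase of that list, had 12.5 FPKM in NeuroD1 and 11.5 FPKM in GFP.

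Phosphatases, trafficking genes and negative regulators had a median difference of 0.045 in log2(FPKM + 1). The receptor phosphatase Ptprb, which restrains Kdr, stood at 10.4 FPKM in NeuroD1 and 11.4 FPKM in GFP (interval of the ratio 0.778 to 1.08). Dll4, the Notch ligand that limits sprouting, had 5.86 FPKM in NeuroD1 and 8.46 FPKM in GFP with an interval of 0.465 to 1.02. Epn1, an endocytic adaptor that takes part in the uptake of Kdr, was the 1 gene of 16 whose interval excluded 1, at 3.10 FPKM in NeuroD1 and 6.28 FPKM in GFP (ratio 0.494, interval 0.262 to 0.893, widened 0.213 to 1.08). An interval below 1 was found for 6.22% of protein-coding genes with 20 reads or more, and one above 1 for 5.93%. Of 12 semaphorins and plexins that use neuropilins, 2 had an interval above 1, against that 5.93%. Plxna3, a co-receptor of Nrp1 and Nrp2, had 4.69 FPKM in NeuroD1 and 2.18 FPKM in GFP (ratio 2.15, interval 1.43 to 3.27), and Sema3d, a guidance ligand, at 5.79 FPKM in NeuroD1 and 3.58 FPKM in GFP (ratio 1.62, interval 1.17 to 2.24), and both stayed above 1 when widened. The most abundant of the list were Sema3b, at 8.37 FPKM in NeuroD1 and 7.39 FPKM in GFP, and Sema3g, at 5.53 FPKM in NeuroD1 and 5.28 FPKM in GFP, both ligands with intervals that held 1.

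Regulators upstream of the ligands held no interval that excluded 1 among 12 genes with enough reads. Such an interval was found for 12.1% of protein-coding genes with 20 reads or more, so a count of 0 in a list this short says little. Epas1, the hypoxia factor prominent in endothelium, stood at 21.2 FPKM in NeuroD1 and 22.9 FPKM in GFP, and reads were not recovered for it. Vhl, which marks hypoxia factors for destruction, had 22.8 FPKM in NeuroD1 and 22.2 FPKM in GFP (interval of the ratio 0.804 to 1.30). Among 8 genes that process or hold the ligands, Mmp9, a matrix protease, was the 1 of 5 with an interval that excluded 1, at 2.32 FPKM in NeuroD1 and 5.24 FPKM in GFP (ratio 0.442, interval 0.232 to 0.805, widened 0.187 to 0.979). Of protein-coding genes with 20 reads or more, 6.22% had an interval below 1. Furin, which cuts the Vegfc precursor, had 6.09 FPKM in NeuroD1 and 5.03 FPKM in GFP (interval 0.915 to 1.601), and Pcsk7, a protease of the same family, had 5.42 FPKM in NeuroD1 and 6.53 FPKM in GFP (interval 0.576 to 1.19). Vegfd, the other ligand of Flt4, stood at 2.56 FPKM (12 reads) in NeuroD1 and 3.38 FPKM (18 reads) in GFP, within the chemoreceptor range. The reported receptor partners and a list of secreted matrix proteins held no interval that excluded 1 among 9 and 4 genes with enough reads, against the same 12.1%. Pecam1, a junction protein of endothelial cells and the most abundant partner, stood at 14.4 FPKM in NeuroD1 and 12.4 FPKM in GFP. In the list of secreted matrix proteins, Cyr61 and Sparc led. Cyr61 had 17.3 FPKM in NeuroD1 and 21.97 FPKM in GFP, and Sparc had 15.2 FPKM in NeuroD1 and 13.9 FPKM in GFP.

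**Figure D4:**
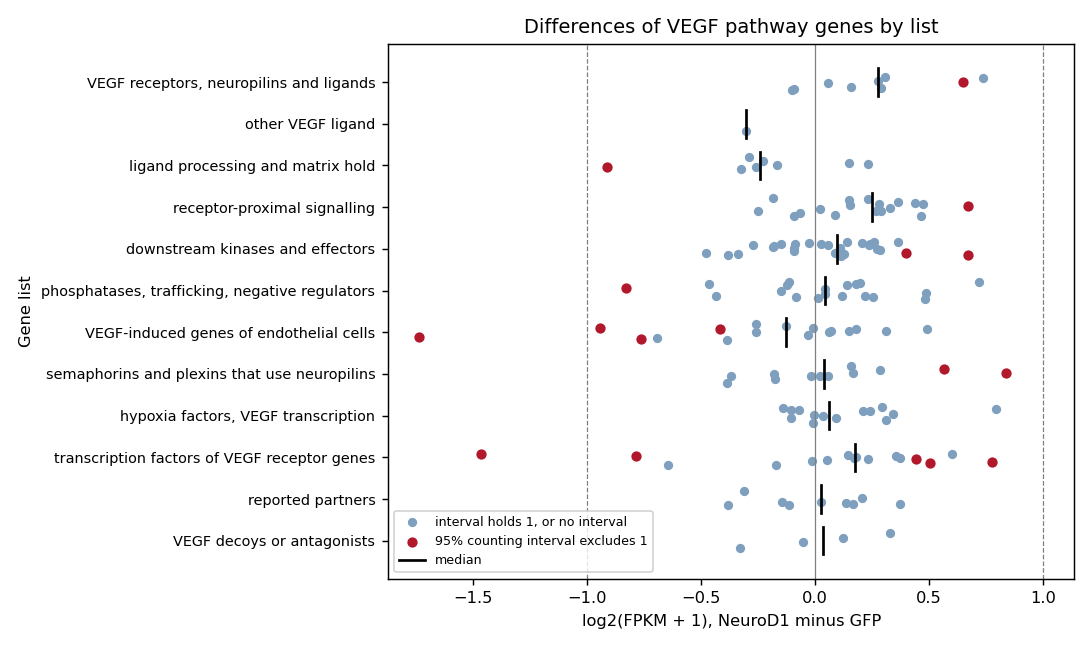
Difference in log2(FPKM + 1), NeuroD1 minus GFP, of the 9 genes (top row) and of each pathway list, with a point per gene at 1 FPKM or more, a black bar at the median and dashed lines at -1 and 1. Red points are genes with at least 20 reads whose 95% counting interval excludes 1, and Kcne3, in the list of VEGF-induced genes, and Foxc2, below 5 FPKM in both libraries, lie past -1.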

How the data were processed

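The authors deposited 1 table of FPKM values with 1 column per library. Per the submitters' processing notes, Bowtie2 2.3.5.1, featureCounts 1.6.3 and DESeq were used with GRCm38. The sources used here do not give how strand, multi-mapping reads and molecular identifiers were handled. Per the labels' protocols, libraries used primers of DRUG-seq, a method that barcodes transcripts at the poly(A) end. Reads that go up with exon length do not match that, and which holds was not settled.

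FPKM times merged exon length (GENCODE M21, of GRCm38) came in steps of 1 read, and 51162 genes (95.7%) gave whole reads within 0.02 in both libraries. Ratios have exact Clopper-Pearson intervals, levels exact Poisson intervals, and ratios of 2 genes conditional odds ratio intervals. Whether reads stand for separate molecules is unknown. Differences use a pseudocount of 1, a scale that understates changes of low genes. The recovery, intervals and threshold were tested on simulated data.

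Members and lists were chosen with earlier results of these data known. Named were all members and, per list, genes past the 2-fold threshold, the 2 with the highest mean FPKM and those with at least 20 reads whose interval excluded 1, up to 6. Prox1 and Rbfox3, cell type markers, were named outside this rule after their values were seen. No gene was named for likeness to a member, which 2 libraries cannot measure. Epas1, Sos1 and Nr4a1 are among genes without recovered reads. Alternatives were other pseudocounts, FPKM minimums and scalings. Protein sequences were not used here. Tools were matplotlib 3.10.9, pandas 2.3.3, scipy 1.17.1 and numpy 2.4.6 under Python 3.11.15.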

Additional observations from a re-analysis of the deposited data

How the results depend on the processing

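No paired analysis was possible because there is a single library per treatment, and for the same reason no replicate could be left out. Scaling by the share of recovered reads, ratios to markers or to another member, the members above the chemoreceptor 95th percentile, and ratios with their intervals under other scalings were added after seeing the data. The count of members past the 2-fold threshold was 0 under each setting run. Pgf had a difference of 1.05 with a pseudocount of 0.1 and 1.38 with the median chemoreceptor FPKM subtracted. It was not counted there because it was below the minimum of 5 FPKM. The difference of Flt1, -0.10, was -0.33 with FPKM scaled to an equal sum in each library and -0.27 with a read given the same share of all recovered reads. With genes above 1000 FPKM left out of the equal sum it was -0.097, and with the median log2 ratio of protein-coding genes set to 0 it was -0.086. The other 8 members stayed within counting error of their value under each setting, and the median of the 9, 0.28, ranged from 0.087 to 0.42. As ratios, Flt1 (0.929) came to exclude 1 at 0.824 with the share of reads and 0.789 with the equal sum. Vegfb ceased to exclude 1 with the widened interval (1.63), the share of reads (1.44) and the equal sum (1.38), as did the summed ligands (1.44 widened, 1.28 and 1.22). The summed receptors, at 1.005 as deposited, lay below 1 at 0.891 with the share of reads and 0.853 with the equal sum. Flt1 held most of their reads, and the intervals of Kdr and Flt4 held 1 under both. Pathway genes past the threshold, 1 at first, were 2 with no minimum, with a minimum of 1 FPKM, with a pseudocount of 0.1 and with the share of recovered reads, 3 with the equal sum, and 0 with a pseudocount of 5 or at 5 FPKM in both libraries. The counts of all genes higher and lower, 1887 and 2295, were 4343 and 6195 with no minimum and 214 and 211 at 20 FPKM, since these change how many genes are counted. Ordered by reads without length, Vegfb stood at position 6 in both libraries, against 2 in NeuroD1 and 3 in GFP per length. Depth limits Vegfc and Pgf most, each with 26 reads over both libraries.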
